A study of Mus musculus with 6 samples.

Results

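Fibroblast growth factors (FGFs) and their receptors were followed in embryonic mouse kidneys through 10 genes with known roles in nephron formation or in the stroma. They are the ligand genes Fgf1, Fgf2, Fgf7, Fgf8, Fgf9, Fgf10 and Fgf20 and the receptor genes Fgfr1, Fgfr2 and Fgfrl1, and they were found by symbol among the 24749 Ensembl identifiers of the deposited table. All 10 were present, once each. RNA had been sequenced from dissected kidneys at E15.5 in 2 groups of 3 libraries. Kidneys of the genotype Foxd1cre; Yapc/c;Tazc/c, called knockout kidneys here, carry loxP-flanked alleles of Yap (Yap1) and Taz (Wwtr1), which encode related co-activators of transcription that the Hippo pathway restrains, together with a Cre transgene that acts in the Foxd1-positive stromal lineage. They were compared with wild-type kidneys, which the labels describe as Cre negative without saying whether they carry floxed alleles. The strain was mixed in both groups. The labels do not say whether each library stands for its own embryo or litter, so p-values measure only the spread between these libraries, and that spread may be technical. Because whole kidneys were used, every cell type of the organ contributes to each value, and fewer cells of a type cannot be told apart from less RNA per cell.

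FGFs are secreted proteins that bind receptor tyrosine kinases together with heparan sulfate and signal largely through the ERK cascade. In the embryonic kidney the ligands and receptors are divided between compartments. Fgf7 and Fgf10 come from mesenchyme and act on the epithelial splice form of Fgfr2 in the ureteric bud, where they promote growth and branching. Fgf9 and Fgf20 keep nephron progenitors alive and undifferentiated, and Fgf8 is made by the newly forming nephron, which depends on it. Fgfr1 and Fgfr2 serve the metanephric mesenchyme as well, while Fgfrl1 encodes a related membrane protein without a kinase domain that is needed for the first nephrons to form. Fgf1 and Fgf2 are broadly acting ligands that lack a classical signal peptide. The values are per gene, so the splice forms of a receptor are not separated.

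Of the targeted genes, Wwtr1 measured 13.5, 12.8 and 12.2 FPKM (fragments per unit of transcript length and of sequencing depth, as deposited) in the knockout libraries, against 20.2, 17.8 and 18.5 FPKM in the wild-type libraries, and it fell (log2 -0.51, limma adjusted p = 0.0235). That call was lost without any 1 of the knockout libraries or without wild-type library 2 (adjusted p between 0.0682 and 0.117), and after rescaling to equal sums (0.0517). Yap1 measured 48.7, 43.2 and 44.2 FPKM in the knockout libraries, against 45.5, 52.6 and 54.9 FPKM in the wild-type libraries, with overlap and no call (log2 -0.16, adjusted p = 0.378). Whether reads from the deleted exons remain cannot be read from values per gene. Markers of nephron progenitors, ureteric tip, podocytes and proximal tubule identified the organ, each list summing to at least 45.4 FPKM in every library. Wild-type library 3 stood apart in markers of neighbouring tissue. Its summed skeletal muscle markers reached 48.5 FPKM, against 9.87 to 18.6 FPKM in knockout libraries and 12.8 and 13.6 FPKM in the other wild-type libraries, and the catecholamine enzyme gene Th stood at 17.8 FPKM there and at most 0.092 FPKM in any other library.

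None of the 10 FGF genes was called between the genotypes. A linear model was fitted with limma to log2(FPKM + 1) of the 16899 genes that averaged at least 0.5 FPKM, and calls required an adjusted p (Benjamini-Hochberg) under 0.05. By that rule 0 of the 10 genes were called, against 0.734% of all genes tested (0.13% higher and 0.604% lower). The 3 receptor genes were, at an unadjusted p under 0.05, higher in knockout kidneys and 0 members were lower, against 16.1% of all genes tested at that level (9.14% higher and 6.94% lower). The same 3 receptors were the only members whose libraries did not overlap between the genotypes in the deposited values, against 24.3% of all genes tested without overlap (12.5% higher and 11.8% lower). On the log2 scale 8 members lay above 0 and 2 below, with a median of 0.17, against 49.6% of all genes tested above 0 and a median of -0.0020.

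**Figure D1:**
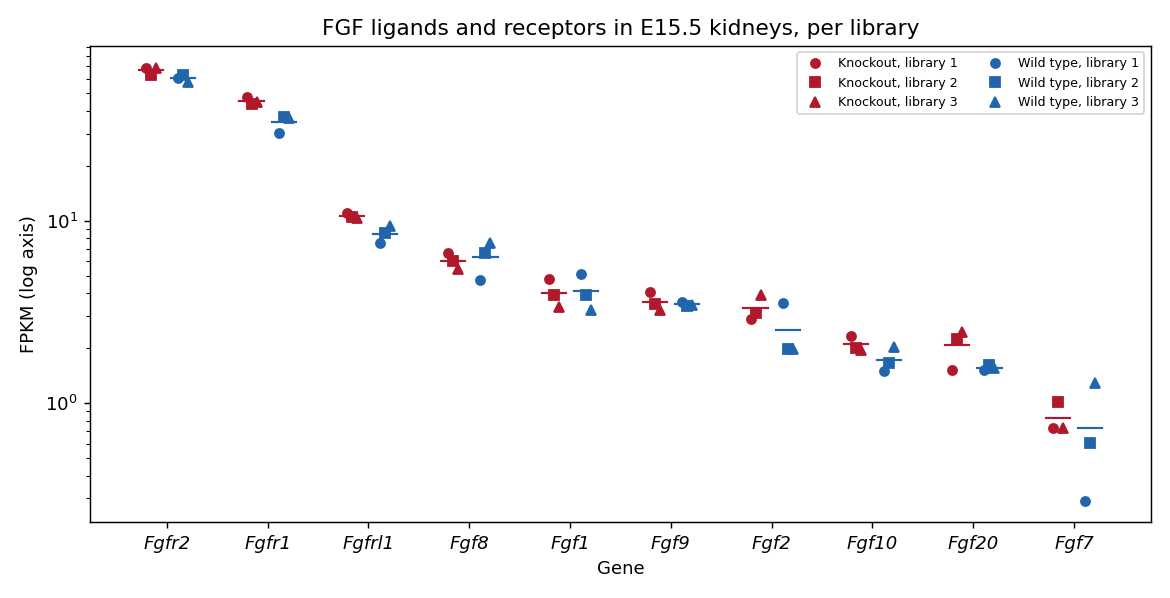
FPKM of each gene on a log axis, knockout libraries in red to the left of wild-type libraries in blue, with a short line at each group mean and genes ordered by their mean in knockout kidneys. The 3 receptor genes stand highest and their red symbols lie above their blue ones, while for all 7 ligands the colours overlap.

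Levels per length were ordered in the same way in both genotypes. Fgfr2 was the most abundant, at 66.9 ± 3.66 FPKM in knockout and 60.4 ± 2.40 FPKM in wild-type kidneys (SD, n = 3 each), followed by Fgfr1 and Fgfrl1, and these 3 were separated from each other and from every ligand in both genotypes. In wild-type kidneys Fgfrl1 and Fgf8 were barely separated. The lowest Fgfrl1 value there was 7.541 FPKM (library 1) and the highest Fgf8 value 7.532 FPKM (library 3). Fgf8 was the most abundant of the 7 ligands and Fgf7 the least, with Fgf1, Fgf9, Fgf2, Fgf10 and Fgf20 in between. In knockout kidneys the ranges of Fgf1 and Fgf9, of Fgf9 and Fgf2, and of Fgf10 and Fgf20 overlapped, and Fgf7 lay below all others. In wild-type kidneys every neighbouring pair from Fgf8 down to Fgf20 overlapped in range, so that their order there is not resolved. The 7 ligands together summed to between 21.1 and 23.0 FPKM in knockout libraries and between 19.9 and 21.1 FPKM in wild-type libraries. The 3 receptors summed to between 116.7 and 127.7 FPKM in knockout libraries, above the 98.6 to 108.3 FPKM of wild-type libraries.

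Fgfr1 (chromosome 8, 25513654 to 25575718, GRCm38), which with Fgfr2 is a kinase receptor of the mesenchyme, had the smallest p of the 10 genes. It measured 47.7, 43.6 and 44.6 FPKM in the knockout libraries, against 30.2, 37.1 and 36.5 FPKM in the wild-type libraries. All 3 knockout libraries lay above all 3 wild-type libraries, and wild-type library 1 was the lowest by several FPKM. Its level in knockout kidneys was 131% of wild type, and the log2 difference was 0.38 (SE 0.08, 95% confidence interval 0.19 to 0.58, limma adjusted p = 0.110). The exact two-sided permutation test gave p = 0.1, the smallest that 3 libraries against 3 allow. Without wild-type library 1 the log2 difference was 0.29 (adjusted p = 0.123), and over all alternatives the adjusted p lay between 0.0932 and 0.364. Exons of the gene model Gm16159 overlap Fgfr1 on the opposite strand, and the labels do not say whether strand was kept, so reads of the pair cannot be told apart here.

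Fgfrl1 (chromosome 5, 108692382 to 108706924), the receptor-like gene without a kinase domain, showed the same arrangement at a lower level. It measured 11.1, 10.4 and 10.4 FPKM in the knockout libraries, against 7.54, 8.56 and 9.33 FPKM in the wild-type libraries. The groups did not overlap, and wild-type library 1 was again the lowest. The log2 difference was 0.30 (SE 0.09, interval 0.10 to 0.50, limma adjusted p = 0.178), with an adjusted p between 0.0975 and 0.607 over the alternatives.

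Fgfr2 (chromosome 7, 130162451 to 133123350), the receptor for Fgf7 and Fgf10 in the ureteric bud, differed by less. It measured 69.0, 62.7 and 69.0 FPKM in the knockout libraries, against 60.8, 62.6 and 57.8 FPKM in the wild-type libraries. The groups were separated only by the narrow gap between knockout library 2 and wild-type library 2, which was 0.0772 FPKM. The log2 difference was 0.14 (SE 0.06, interval 0.0033 to 0.28, limma adjusted p = 0.304). This gap closed when libraries were rescaled to equal sums, and also with quantile normalization. The unadjusted limma p of Fgfr2 was 0.046 in the main fit and 0.021 without knockout library 2. Without any other single library it was over 0.05 (0.0534 to 0.149). It was also over 0.05 with both of these scalings, without the trend option, with the replicate block and after a correction for GC content. The annotated Fgfr2 locus is long and holds 27 transcripts, and exons of Ctbp2 overlap it on the same strand. Which transcripts give the locus its length was not examined.

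The balance of the kinase receptors was described by the ratio of Fgfr1 to Fgfr2 within each library. It was 0.691, 0.696 and 0.646 in knockout libraries, against 0.497, 0.593 and 0.631 in wild-type libraries. Fgfr1 was therefore the less abundant of the pair in every library, and the ratio was higher in each knockout library than in any wild-type library. The ratio uses the deposited values, before the correction for GC content described below. Knockout library 3 and wild-type library 3 were close, and no test was made of this ratio.

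Base composition moved with the genotype difference across all genes. When the 16797 tested genes with annotated transcripts were divided into 5 equal bins by the mean GC content of those transcripts, the median log2 difference was -0.08 in the lowest bin and 0.13 in the highest. Fgfr1 (57.0% GC), Fgfrl1 (65.2%) and the ligand gene Fgf8 (63.5%) belong to the highest bin, Fgfr2 (51.5%) to the middle one and Fgf7 (37.9%) and Fgf10 (41.6%) to the lowest. A correction chosen after the data were seen, which removes the trend of log2 values with GC content in each library, gave a log2 difference of 0.12 for Fgfrl1 (interval -0.01 to 0.25, adjusted p = 0.466), 0.27 for Fgfr1 (interval 0.12 to 0.42, adjusted p = 0.168) and 0.13 for Fgfr2 (adjusted p = 0.432). After it Fgfr1 alone of the 10 genes had an unadjusted p under 0.05, where 5.64% of all genes were higher at that level. All 3 receptors, and Fgf10 as well, were without overlap between the genotypes after the correction, against 9.37% of all genes higher without overlap.

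**Figure D2:**
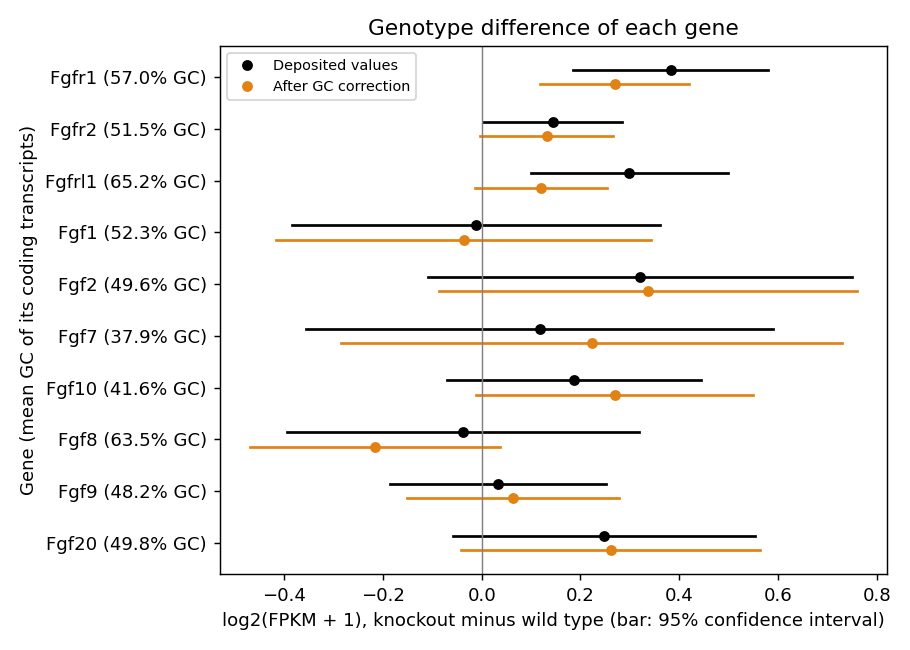
Log2 difference, knockout minus wild type, of each gene with its 95% confidence interval, from the deposited values in black and after the correction for GC content in orange, with receptors at the top. Fgfr1 lies to the right of 0 with both, Fgfrl1 moves to 0.12 after correction, and every ligand interval includes 0.

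RefSeq promoter windows, cut here to the 250 bases before the annotated start, were given for 6 of the 10 genes. Those of Fgfr2 and Fgfrl1 are shown because these are the receptors with a window, and because they hold the fewest and the most CG dinucleotides of the 6. Both windows lie inside the annotated loci of their genes, so other annotated starts exist, and the bases before those were not examined. Both are written 5′ to 3′ on the strand of the gene, and capitals mark each CG dinucleotide. The first lies at chr7:130266809-130267058 on the minus strand and the second at chr5:108693979-108694228 on the plus strand of GRCm38.p6.
Fgfr2: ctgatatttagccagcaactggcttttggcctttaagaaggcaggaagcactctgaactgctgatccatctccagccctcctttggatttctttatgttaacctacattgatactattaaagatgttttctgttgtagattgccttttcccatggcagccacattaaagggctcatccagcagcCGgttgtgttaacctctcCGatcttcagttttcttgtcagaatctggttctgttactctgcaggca
Fgfrl1: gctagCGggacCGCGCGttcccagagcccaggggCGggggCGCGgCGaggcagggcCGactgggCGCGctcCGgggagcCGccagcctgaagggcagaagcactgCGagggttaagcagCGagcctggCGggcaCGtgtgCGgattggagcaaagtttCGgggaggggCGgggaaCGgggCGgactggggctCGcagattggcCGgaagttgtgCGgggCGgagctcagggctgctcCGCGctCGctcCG
The Fgfr2 window holds 2 CG dinucleotides and 44.0% GC, and the Fgfrl1 window holds 30 and 73.6%. A CG was found in 92.1% of the 32851 windows of that length, with a median of 6 per window. Of all windows 29.0% hold no more than that of Fgfr2 and 94.8% no more than that of Fgfrl1. The letters CATTCC, the core of the element that TEAD factors bind and through which YAP and TAZ act, were searched on both strands. They occur in 12.6% of all windows and in 0 of the 6 windows of FGF genes, which says only that these letters are not in those windows.

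Summed markers of the ureteric lineage and of early nephrons, though not of every epithelium, lay higher in knockout kidneys, as the receptors did. The 6 ureteric tip markers summed to between 113.2 and 122.1 FPKM in knockout libraries and between 96.9 and 105.0 FPKM in wild-type libraries, and the 5 collecting duct markers to between 203.3 and 213.9 FPKM in knockout libraries and between 171.2 and 182.1 FPKM in wild-type libraries. For both lists 0 members were called by limma, while 4 of 6 and 3 of 5 were higher at an unadjusted p under 0.05, against 9.14% of all genes tested. Within the collecting duct list Aqp2, the water channel gene, had a log2 difference of -0.21. The 6 early nephron markers summed to between 139.2 and 150.6 FPKM in knockout and between 123.2 and 123.8 FPKM in wild-type libraries. Of these 1, Wnt4, was called higher, against 0.13% of all genes tested. The 5 podocyte markers overlapped between the genotypes, at 48.7 to 57.3 FPKM in knockout and 45.4 to 52.2 FPKM in wild-type libraries. The 5 proximal tubule markers overlapped too, at 75.5 to 92.1 FPKM in knockout and 55.4 to 104.8 FPKM in wild-type libraries, with a median log2 difference of -0.13. The 6 nephron progenitor markers summed to between 106.2 and 114.5 FPKM in knockout and between 101.9 and 107.3 FPKM in wild-type libraries, with 0 members at an unadjusted p under 0.05 and 0 called. The sum of the 7 cortical stroma markers went the other way, at 351.7 to 365.4 FPKM in knockout and 398.9 to 431.5 FPKM in wild-type libraries. Of these markers 1 of 7 was called lower, but Aldh1a2 was higher without overlap (log2 0.155) and Tcf21 overlapped between the genotypes (log2 -0.04). The 5 smooth muscle markers summed to 53.2 to 78.7 FPKM in knockout and 149.1 to 180.1 FPKM in wild-type libraries, with 3 of 5 called lower. Over all genes tested 0.604% were called lower. No marker of these lists was at 0 in all libraries. The part of these compartments in the receptor values was not tested.

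The mesenchymal ligands Fgf7 and Fgf10 showed no called difference. Fgf10 (chromosome 13, 118669791 to 118792115), which drives ureteric branching with Fgf7, measured 2.34, 2.01 and 1.96 FPKM in the knockout libraries, against 1.49, 1.66 and 2.04 FPKM in the wild-type libraries. Wild-type library 3 lay within the knockout range and the other wild-type libraries below it. The log2 difference was 0.19 (SE 0.11, interval -0.07 to 0.44, limma adjusted p = 0.445). Without wild-type library 3 it was 0.27 (adjusted p = 0.242), and without wild-type library 1 it was 0.12 (adjusted p = 0.684). These values correspond to about 106 to 141 fragments in knockout and 78 to 112 in wild-type libraries on its 1 annotated coding transcript of 4114 bases, by an approximate estimate of depth. The gene model Gm16263 overlaps it on the opposite strand, with the same limit as for Fgfr1.

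Fgf7 (chromosome 2, 126034658 to 126091185), known as keratinocyte growth factor, was the least abundant and the most variable member in wild-type kidneys. It measured 0.730, 1.02 and 0.732 FPKM in the knockout libraries, against 0.292, 0.607 and 1.28 FPKM in the wild-type libraries. The wild-type libraries thus held both the lowest and the highest value, and the knockout libraries lay between them. About 27, 32 and 28 fragments stand behind the knockout values and about 9, 21 and 42 behind the wild-type values. The log2 difference was 0.12 (SE 0.20, interval -0.35 to 0.59, limma adjusted p = 0.811). It was 0.34 without wild-type library 3, where the skeletal muscle and Th markers were raised, and -0.072 without wild-type library 1. The part of neighbouring tissue in the Fgf7 value of that library was not tested. The ratio of Fgf10 to Fgf7 ranged from 1.98 to 3.20 in knockout libraries and from 1.59 to 5.12 in wild-type libraries.

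Among the ligands of the nephron lineage, Fgf20 (chromosome 8, 40279166 to 40308331), a signal made by nephron progenitors, was not called either. It measured 1.52, 2.24 and 2.45 FPKM in the knockout libraries, against 1.52, 1.62 and 1.55 FPKM in the wild-type libraries. Knockout libraries 2 and 3 lay above every wild-type library, and knockout library 1 lay among them. The log2 difference was 0.25 (SE 0.13, interval -0.06 to 0.55, limma adjusted p = 0.396). It was 0.38 without knockout library 1 (adjusted p = 0.250) and 0.16 without knockout library 3 (adjusted p = 0.712). Its exons overlap those of Micu3 on the opposite strand, again with the limit given for Fgfr1.

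Fgf9 (chromosome 14, 58070547 to 58112720), which acts with Fgf20 on nephron progenitors, had the narrowest interval of the 7 ligands. It measured 4.05, 3.50 and 3.25 FPKM in the knockout libraries, against 3.59, 3.41 and 3.45 FPKM in the wild-type libraries. The wild-type values lay within the knockout range. The log2 difference of 0.03 had an interval from -0.19 to 0.25 (limma adjusted p = 0.890), which corresponds to between 0.879 and 1.19 times on the scale of FPKM + 1. Within libraries Fgf20 stood at 0.376, 0.639 and 0.755 of the Fgf9 level in knockout kidneys, against 0.423, 0.474 and 0.450 in wild-type kidneys.

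Fgf8 (chromosome 19, 45736798 to 45742915), the ligand of the forming nephron, measured 6.69, 6.01 and 5.42 FPKM in the knockout libraries, against 4.71, 6.69 and 7.53 FPKM in the wild-type libraries. The knockout range lay inside the wild-type range. Its log2 difference of -0.04 had an interval from -0.39 to 0.32 (limma adjusted p = 0.926) and was -0.22 after the correction for GC content (interval -0.47 to 0.04, adjusted p = 0.488). Without wild-type library 3, its highest library, it was 0.083 (adjusted p = 0.795). Of 6 early nephron markers, 3 had an unadjusted p under 0.05, all higher in knockout kidneys, against 9.14% of all genes tested that were higher. Wnt4, 1 of them, was called (log2 0.63, limma adjusted p = 0.0402), and it also belongs to the list of medullary stroma markers. The difference between Fgf8 and these markers was not tested.

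The broadly acting ligands overlapped between the genotypes too. Fgf1 (chromosome 18, 38838673 to 38929472) measured 4.81, 3.91 and 3.37 FPKM in the knockout libraries, against 5.12, 3.91 and 3.24 FPKM in the wild-type libraries. The spread within each genotype exceeded the difference of their means, which were 4.03 ± 0.728 and 4.09 ± 0.956 FPKM in knockout and wild-type kidneys (SD, n = 3 each; log2 -0.01, limma adjusted p = 0.979). Without wild-type library 3 the log2 difference was -0.14 (adjusted p = 0.676). Fgf2 (chromosome 3, 37348346 to 37410108) measured 2.90, 3.12 and 3.91 FPKM in the knockout libraries, against 3.56, 1.98 and 1.98 FPKM in the wild-type libraries. Wild-type library 1 lay within the knockout range and the other wild-type libraries below it. The log2 difference was 0.32 (SE 0.18, interval -0.11 to 0.75, limma adjusted p = 0.430). It reached 0.52 without wild-type library 1 (adjusted p = 0.183) and was 0.22 without wild-type library 3 (adjusted p = 0.59). Fgf2 overlaps exons of Nudt6, its known antisense partner, on the opposite strand and of the gene model Gm43439 on its own strand, so its level is uncertain.

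Single libraries weighed on several of these values. Wild-type library 1 was the lowest of the 6 libraries for 6 of the 10 genes, and knockout library 1 the highest for 5, against 24.2% and 20.5% of all genes tested. Without wild-type library 3 the members without overlap and higher numbered 5, with Fgf7 and Fgf10 added to the receptors, against 19.7% of all genes tested in those 5 libraries.

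**Figure D3:**
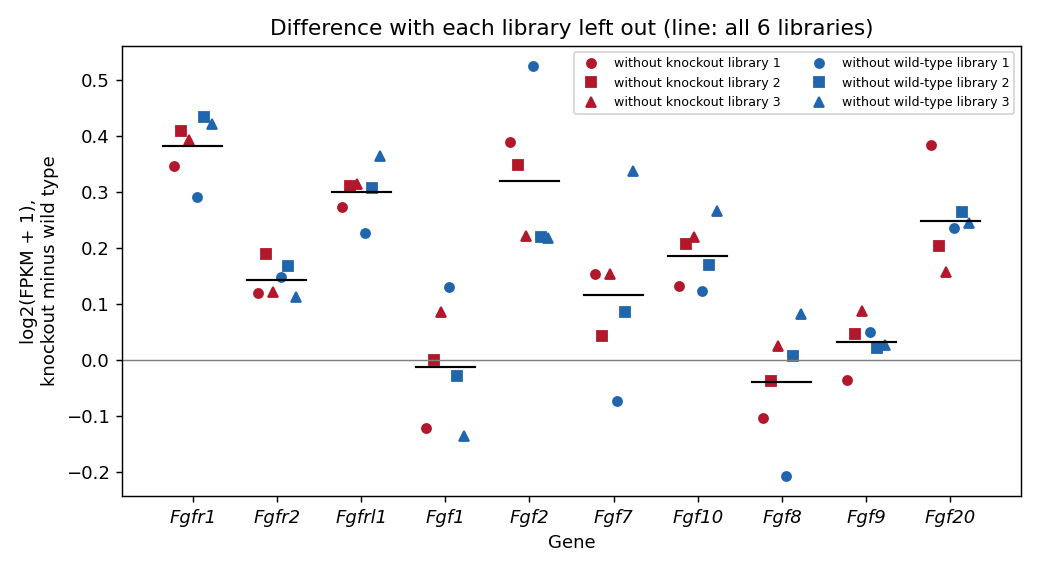
Log2 difference, knockout minus wild type, of each gene with 1 library left out in turn (red symbols, a knockout library; blue symbols, a wild-type library), with a black line at the value from all 6 libraries. The receptors stay above 0 throughout, as do Fgf2, Fgf10 and Fgf20, while Fgf1, Fgf7, Fgf8 and Fgf9 fall on both sides of 0.

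By the pattern over the 6 libraries, measured as the root mean square difference of standardized log2 values, the genes most like Fgfr1 among 16899 were Cldn7 (0.0442), a tight junction gene of epithelia, Rhot2 (0.0863), a mitochondrial GTPase gene, and Rab11fip1 (0.0968), a gene of endosome recycling. Cldn7 measured 35.9, 30.8 and 32.1 FPKM in the knockout libraries, against 15.9, 22.3 and 22.6 FPKM in the wild-type libraries. With 6 libraries this likeness is a description only.

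The rest of the FGF pathway was examined through 66 further genes in 6 lists, of which 55 were tested. Only Hs6st2 was called, and it was lower in knockout kidneys. Of the 11 other secreted ligands 3 were tested and 0 called by limma, none of them at an unadjusted p under 0.05. Fgf18 measured 1.10 ± 0.340 FPKM in knockout and 1.54 ± 0.426 FPKM in wild-type kidneys (SD, n = 3 each; log2 -0.28, limma adjusted p = 0.448), and the log2 difference was -0.14 without wild-type library 3. Fgf15 had a log2 difference of 0.02 (adjusted p = 0.974). Of the 4 intracellular FGF homologous factors, which regulate sodium channels, 3 were tested and 0 called, with 0 at an unadjusted p under 0.05. Fgf12 and Fgf11 had the smallest p, with log2 differences of 0.13 (adjusted p = 0.562) and -0.11 (adjusted p = 0.649).

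Among 8 tested genes of other receptors, co-receptors and binding proteins 0 were called by limma. At an unadjusted p under 0.05, Fgfr4 was higher and Flrt2 lower, against 9.14% and 6.94% of all genes tested. Without overlap between the genotypes, Fgfr3 was higher and Fgfbp1 and Flrt2 were lower, against 12.5% and 11.8% of all genes tested. Fgfr3 had a log2 difference of 0.147 (limma adjusted p = 0.377), which was 0.0066 after the correction for GC content. Flrt2, a transmembrane protein that binds FGF receptors, measured 24.4, 25.7 and 25.3 FPKM in the knockout libraries, against 30.9, 33.1 and 30.9 FPKM in the wild-type libraries. The groups were separate, and the log2 difference of -0.32 missed the threshold narrowly (limma adjusted p = 0.0501, between 0.0445 and 0.208 over the alternatives, of which 4 called it). Fgfr4 measured 5.89, 3.78 and 4.68 FPKM in the knockout libraries, against 2.55, 3.80 and 3.18 FPKM in the wild-type libraries, and the groups overlapped (log2 0.46, adjusted p = 0.237). Its unadjusted p was over 0.05 without knockout library 1 or 3 or wild-type library 1, and after the correction for GC content.

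Genes that respond to FGF and ERK signalling, or restrain it, lay mostly above 0. By limma 0 of 13 were called. At an unadjusted p under 0.05, Dusp4, Etv1, Etv4, Etv5, Spry1 and Spry4 were higher and Spred1 was lower, and 8 genes were higher without overlap between the genotypes. Over all genes tested 9.14% were higher and 6.94% lower at that p, and 12.5% were higher without overlap. The median log2 difference of the list was 0.22, against -0.0020 over all genes tested. After the correction for GC content it was 0.12, with Dusp4, Etv1, Etv5, Spry1 and Spry4 higher at an unadjusted p under 0.05, against 5.64% of all genes. Spry1, a feedback inhibitor that limits signalling by FGF receptors and by Ret, measured 38.8, 29.4 and 32.7 FPKM in the knockout libraries, against 20.03, 23.9 and 22.9 FPKM in the wild-type libraries. The groups were separate, at 151% of wild type (log2 0.57, SE 0.11, limma adjusted p = 0.0782, between 0.0688 and 0.329 over the alternatives). Dusp4, an ERK phosphatase, had a log2 difference of 0.33 (adjusted p = 0.134). Etv4 and Etv5 are members of this list and of the ureteric tip markers, so the lists are not independent.

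Receptor adaptors and effectors gave 0 calls by limma among 8 genes. Frs3, Grb2 and Shc1 were higher at an unadjusted p under 0.05, against 9.14% of all genes tested. The number was 0 without wild-type library 1, without knockout library 1 and after rescaling to equal sums. It was 1, either Frs3 or Grb2, without wild-type library 2 or knockout library 2. After the correction for GC content it was 1 (Grb2), with log2 differences of 0.12 for Shc1 and 0.07 for Frs3, against 0.21 and 0.24 before it. Grb2, the adaptor that links receptors to Ras, had a log2 difference of 0.28 (adjusted p = 0.218), and Shc1, another adaptor, of 0.21 (adjusted p = 0.246).

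Heparan sulfate, the co-receptor polysaccharide of FGFs, was represented by 20 genes, of which 0 were called higher and 1 lower by limma, with 4 in each direction at an unadjusted p under 0.05 and a median log2 difference of 0.0061. Over all genes tested 9.14% were higher and 6.94% lower at that p. Without wild-type library 3 the list held 7 higher genes at that p, but the share over all genes was not computed for those 5 libraries. There 8 genes of the list were higher without overlap, against 19.7% of all genes tested. Hs6st2, a heparan sulfate 6-O-sulfotransferase, measured 10.3, 10.3 and 10.8 FPKM in the knockout libraries, against 13.9, 14.1 and 13.98 FPKM in the wild-type libraries. It fell to 74.8% of wild type with separate groups (log2 -0.39, SE 0.06, limma adjusted p = 0.0329). The call was lost when any 1 library was left out (adjusted p between 0.0631 and 0.162), when libraries were rescaled to equal sums (0.0542), without the trend option (0.0513) and after the correction for GC content (0.0540).

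**Figure D4:**
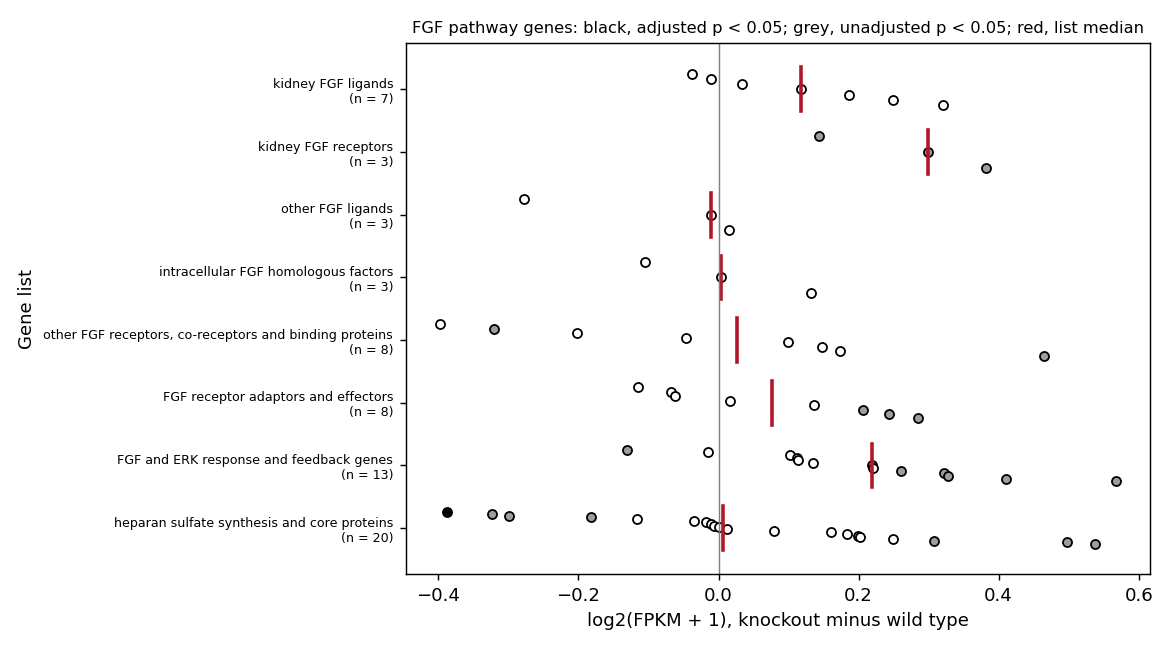
Log2 difference, knockout minus wild type, of each tested gene by list, with black symbols for an adjusted p under 0.05, grey for an unadjusted p under 0.05 and white for the rest, and a red line at the list median. The only black symbol is Hs6st2, at -0.39 among the heparan sulfate genes, and the response and feedback genes have a median of 0.22.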

How the data were processed

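RNA of whole kidneys was sequenced in 3 knockout and 3 wild-type libraries. The submitters' processing notes name bcl2fastq 2.17.1.14, Salmon, GRCm38 and mm10; a Salmon version, annotation release or filter is not stated there. The authors deposited FPKM values per Ensembl gene and no counts were used. Symbols matched 24469 of 24749 identifiers, and positions came from GENCODE M21 on GRCm38. Of 15 pairs of libraries 0 were identical.

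A filter at a mean of 0.5 FPKM was followed by log2(FPKM + 1), which understates changes of low genes, and by limma 3.58.1 in R 4.3.3 on genotype (trend and robust options, Benjamini-Hochberg adjustment). Intervals are 95%. A percentage of wild type divides mean FPKM by mean FPKM. The fit was tested on simulated data. Depth was approximated from the smallest steps between FPKM values, which gave between 12700000 and 15500000 fragments per library. Fragments per gene use the median length of its coding transcripts.

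Alternatives were pseudocounts of 0.1 and 0.5, other filters, rescaling, quantile normalization, other moderation, a replicate block, each library left out, and a correction for transcript GC content (lowess in each library) added after the data were seen. Named genes were the 10 members, Yap1, Wwtr1, every called gene of a pathway list or else its 2 genes of smallest p, and the 3 genes most like the member of smallest p. Further genes are named where they make up a small count or mark a cell type, and were chosen after their values were seen. The members and lists were chosen with earlier results of these data known.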

Additional observations from a re-analysis of the deposited data

How the results depend on the processing

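Members called by limma stayed at 0 under all alternatives. Fgf1 had a log2 difference of 0.0017 with quantile normalization, against -0.01, and -0.14 to 0.13 with 1 library left out. The ranges with 1 library left out also included 0 for Fgf7 (-0.072 to 0.34), Fgf8 (-0.21 to 0.083), Fgf9 (-0.036 to 0.088) and Fgf15 (-0.14 to 0.11), and Fgf15 was at -0.065 after the GC correction, with or without the replicate block. Members higher at an unadjusted p under 0.05 numbered 3, against 9.14% of all genes tested, and 2 to 4 with 1 library left out. They numbered 1 after the GC correction, against 5.64% of all genes, and also 1 with the replicate block added to it. With 1 library left out, Fgfr1 and Fgfrl1 were always among these members, but Fgfr2 only without knockout library 2. Fgf2, Fgf7, Fgf10 or Fgf20 made up the rest of those counts. Members higher without overlap numbered 3 to 5 with 1 library left out. The 5 came without wild-type library 3, where 19.7% of all genes tested were higher without overlap, against 12.5% with all 6 libraries. Other shares over all genes with 1 library left out were not computed, so those counts describe the members only. Genes called over the whole table numbered 124, 52 without wild-type library 2, 66, 57 and 58 without knockout libraries 1, 2 and 3, 106 without wild-type library 1, 147 without wild-type library 3, 32 with the replicate block and 48 with the block and the GC correction. The replicate numbers showed no visible pairing. Deviations of same-numbered libraries correlated at 0.0238, -0.0422 and 0.0504, and those of different-numbered libraries at between -0.0926 and 0.081. Whether libraries shared a litter or batch cannot be read from these correlations. Under the block Wwtr1 (adjusted p = 0.108) and Hs6st2 (0.183) were not called. The cause of these shifts was not tested. Depth limits the low ligands: about 9 to 42 fragments stand behind each value of Fgf7 and about 20 to 39 behind each of Fgf20. For Fgf2 the estimate was about 14 to 32 fragments, by its median coding length of 535 bases. Its coding transcripts run from 462 to 5973 bases, so the Fgf2 estimate is uncertain and could be far higher.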

Other observations

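Some paralogous heparan sulfate genes had log2 differences of opposite sign. They were chosen after their values were seen, and of the genes given here only Hs6st2 was called. Hs6st1, a paralog of Hs6st2 with the same sulfation reaction, measured 14.3, 10.9 and 11.6 FPKM in the knockout libraries, against 6.80, 9.50 and 9.02 FPKM in the wild-type libraries. The groups were separate, and Hs6st1 lay at 146% of wild type (log2 0.50, limma adjusted p = 0.177), while Hs6st2 lay at 74.8%. After the correction for GC content the log2 difference was 0.37 for Hs6st1 (57.7% GC) and -0.33 for Hs6st2 (45.2% GC).

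Among the glypicans, heparan sulfate proteins anchored in the membrane, 4 belong to the list and 0 of them were called by limma. Gpc1 measured 23.5, 23.3 and 21.9 FPKM in the knockout libraries, against 12.5, 16.8 and 17.6 FPKM in the wild-type libraries (log2 0.54, limma adjusted p = 0.116). Gpc3, the most abundant gene of the list, measured 264.7, 261.7 and 265.7 FPKM in the knockout libraries, against 342.9, 324.3 and 324.9 FPKM in the wild-type libraries (log2 -0.32, limma adjusted p = 0.0501). It missed the threshold narrowly. The heparan sulfate list had 1 gene called lower in the main fit. It had 2 with a pseudocount of 0.1, with a filter at a mean of 1 FPKM and without robust moderation. Gpc6 and Gpc4 had log2 differences of -0.18 (limma adjusted p = 0.171) and -0.04 (limma adjusted p = 0.891). After the correction for GC content the log2 differences were 0.39 for Gpc1 and -0.28 for Gpc3. Gpc1 (59.1% GC) and Hs6st1 lie in the highest of the 5 bins of transcript GC content, and Gpc3 (47.2%) and Hs6st2 in the next to lowest. The difference between paralogs was not tested.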
